A study of Mus musculus with 3 samples.

Results

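Expression of 10 genes of the hypoxia and glycolysis response was followed in leukocytes of naive and transplanted mouse lungs. They were taken by name from the 32285 genes counted, not by a rule on their values, but with earlier results of these data known. The 10 genes are Hif1a, Slc2a1, Hk2, Ldha, Pgk1, Pfkfb3, Vegfa, Bnip3, Egln3 and Adm. All 10 were matched in each of 3 single-cell RNA libraries, and their unique molecular identifiers (UMIs, 1 per captured RNA molecule) were summed per library in neutrophils, monocytes, macrophages, B cells, T cells and NK cells. The naive library came from left lungs of untreated B6 mice. The libraries called 2 h and 3 d came from left lungs of B6 (CD45.2) donors that were placed into B6 (CD45.1) recipients after 60 min of cold ischemia at 4 °C and 45 min of warm ischemia at 28 °C, and that were harvested 2 hours or 3 days after blood flow returned. The labels give C57BL/6J as the strain of all samples, whereas the methods list CD45.1 mice as a congenic strain of their own. The study's methods give mice of 8 to 10 weeks, both sexes, and no transgene or deletion was named in any group. Each library held pooled cells of 2 mice, and the transplant libraries were sorted for CD45.1, which marks cells of the recipient. The same staining was described for the naive library. Each group is therefore 1 library with no replicate, no difference between libraries was tested, and all intervals below are 95% exact Poisson intervals, or exact intervals of a ratio, that cover counting error only.

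Hypoxia-inducible factor 1 is a transcription factor of an oxygen-regulated subunit, encoded by Hif1a, and a constant partner, encoded by Arnt. In oxygen, prolyl hydroxylases of the Egln family mark the subunit for destruction through the Vhl ubiquitin ligase, so that much of its control lies after transcription and the RNA level of Hif1a does not measure the protein. In low oxygen the factor raises glucose uptake (Slc2a1), glycolysis (Hk2, Pfkfb3, Pgk1, Ldha), vessel growth (Vegfa, Adm), removal of mitochondria (Bnip3) and its own brake (Egln3). Neutrophils and inflammatory macrophages rely heavily on glycolysis, and the same genes also answer to inflammatory and growth signals.

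The factor binds a short core, ACGTG or GCGTG, and the bases before the transcription starts of 5 glycolysis members are given because these genes moved in different directions here. Each line holds the 250 bases before an annotated start on the gene's own strand, from RefSeq on build GRCm38.p6, with the core on either strand in capitals. On the printed strand a core of the other strand reads CACGT or CACGC, and in CACGTG the matches of both strands overlap and are counted as 2.
Slc2a1, chr4:119108495-119108744, plus strand: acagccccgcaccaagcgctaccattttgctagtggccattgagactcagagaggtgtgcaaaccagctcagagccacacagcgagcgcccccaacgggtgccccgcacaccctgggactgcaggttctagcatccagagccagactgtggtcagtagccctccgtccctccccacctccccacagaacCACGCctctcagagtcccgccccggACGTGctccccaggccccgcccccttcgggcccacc
Hk2, chr6:82774455-82774704, minus strand: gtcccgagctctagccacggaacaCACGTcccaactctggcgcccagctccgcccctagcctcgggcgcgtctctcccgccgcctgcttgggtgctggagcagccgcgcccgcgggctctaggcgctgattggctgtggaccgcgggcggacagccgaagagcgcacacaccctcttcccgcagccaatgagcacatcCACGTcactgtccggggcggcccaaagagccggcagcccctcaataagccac
Pfkfb3, first of its 2 starts, chr2:11553930-11554179, minus strand: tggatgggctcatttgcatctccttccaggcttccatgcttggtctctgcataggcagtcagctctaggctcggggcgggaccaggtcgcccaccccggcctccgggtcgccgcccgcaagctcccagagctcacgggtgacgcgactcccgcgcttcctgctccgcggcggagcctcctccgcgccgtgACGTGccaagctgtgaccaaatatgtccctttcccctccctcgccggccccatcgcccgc
Pgk1, chrX:106186850-106187099, plus strand: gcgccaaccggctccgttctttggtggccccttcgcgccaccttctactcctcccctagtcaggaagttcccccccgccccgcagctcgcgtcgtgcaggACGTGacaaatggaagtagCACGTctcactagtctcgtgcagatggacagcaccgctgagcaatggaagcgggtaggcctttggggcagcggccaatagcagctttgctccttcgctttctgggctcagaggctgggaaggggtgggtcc
Ldha, first of its 2 starts, chr7:46845554-46845803, plus strand: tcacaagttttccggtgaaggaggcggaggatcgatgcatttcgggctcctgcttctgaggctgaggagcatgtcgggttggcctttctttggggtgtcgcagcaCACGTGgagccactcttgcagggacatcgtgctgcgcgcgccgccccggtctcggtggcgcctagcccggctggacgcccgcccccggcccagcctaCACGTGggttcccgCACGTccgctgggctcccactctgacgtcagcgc
The Ldha window held 5 matches, the windows of Slc2a1, Hk2 and Pgk1 held 2 each, and that of Pfkfb3 held 1. Of the 13 annotated windows of all 10 members, 12 held a core, and each member had at least 1 window with it. The window without a core was that of the first of the 2 starts of Vegfa, and its other window lies within the gene. The same core was in 38.6% of all 32851 such windows, and in 63.8% of the 9178 windows with at least 60% G and C, a content that 8 of the 13 member windows reached. A match describes letters only and says nothing of binding.

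The libraries differed in depth, and this bears on every level below. After the filters of the study's methods 2422, 10283 and 8324 cells were kept (naive, 2 h, 3 d), with a median of 7299, 878 and 5717 UMIs per cell. The deposited matrices carry headers of Cell Ranger, version 7.1.0 in naive and 6.0.0 in both transplant libraries. Few cell barcodes were shared between libraries (8, 1 and 23 for the 3 pairs). Cells were clustered, and clusters were assigned to the lineages by marker genes. Neutrophils made up 16.02%, 42.7% and 27.2% of kept cells (388, 4391 and 2261), monocytes 5.82%, 4.40% and 14.7% (141, 452 and 1222), and macrophages 4.42%, 0.0486% and 9.60% (107, 5 and 799). B cells numbered 555, 1418 and 1904, T cells 577, 2475 and 1055, and NK cells 516, 1051 and 326. With 5 cells, macrophages at 2 h were not compared. Leaving aside macrophages at 2 h, every lineage held at least 1 UMI of each of its markers, except that Arg1 was at 0 in naive macrophages and Cidec and Krt79 were at 0 in macrophages at 3 d. This does not test the names, since the same markers assigned the clusters. T cells also held all 14 neutrophil markers in each library. The libraries mostly formed separate clusters within each lineage. The neutrophil genes S100a8 and S100a9 were also counted outside neutrophils. Their summed level in B, T and NK cells was 3.22% to 4.38% of that in neutrophils at 2 h and 12.1% in monocytes, against 0.799% to 2.70% in the same lineages at 3 d and at most 0.754% in naive lungs. Whether this came from free RNA, doublets or the cells' own expression was not tested, and below this ratio is called the neutrophil share.

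The comparison of 2 h with 3 d, which used the same software version, asks how the response differs between early and late reperfusion. Levels are given as CPM, UMIs per 1000000 UMIs of the lineage in that library. A gene entered a comparison where its mean level in the pair of libraries was at least 10 CPM, and it was called where the levels differed by more than 2-fold. Of 50 pairs of a member and a lineage, 39 entered, 6 were called higher at 2 h and 2 lower. Across all genes and the same lineages, 6.79% of 35341 pairs were called higher at 2 h and 12.5% lower, against 15.4% and 5.13% of the pairs of members. The median log2 ratio was 0.34 over the 39 pairs and -0.22 over all genes. Taking the mean over cells in place of the sum left 3 called higher and 2 lower, beside 6.61% and 14.4% of all gene and lineage pairs. Neutrophils held 5 of the 8 calls: Pfkfb3, Hk2, Vegfa and Egln3 were higher at 2 h and Pgk1 lower. In neutrophils alone 6.69% of 5412 genes were called higher at 2 h and 13.3% lower. B cells held 2 calls (Pfkfb3 higher, Slc2a1 lower), monocytes held 1 (Pfkfb3 higher), and T and NK cells held none. In single lineages 6.46% to 7.76% of all genes were called higher at 2 h and 10.1% to 13.7% lower.

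**Figure D1:**
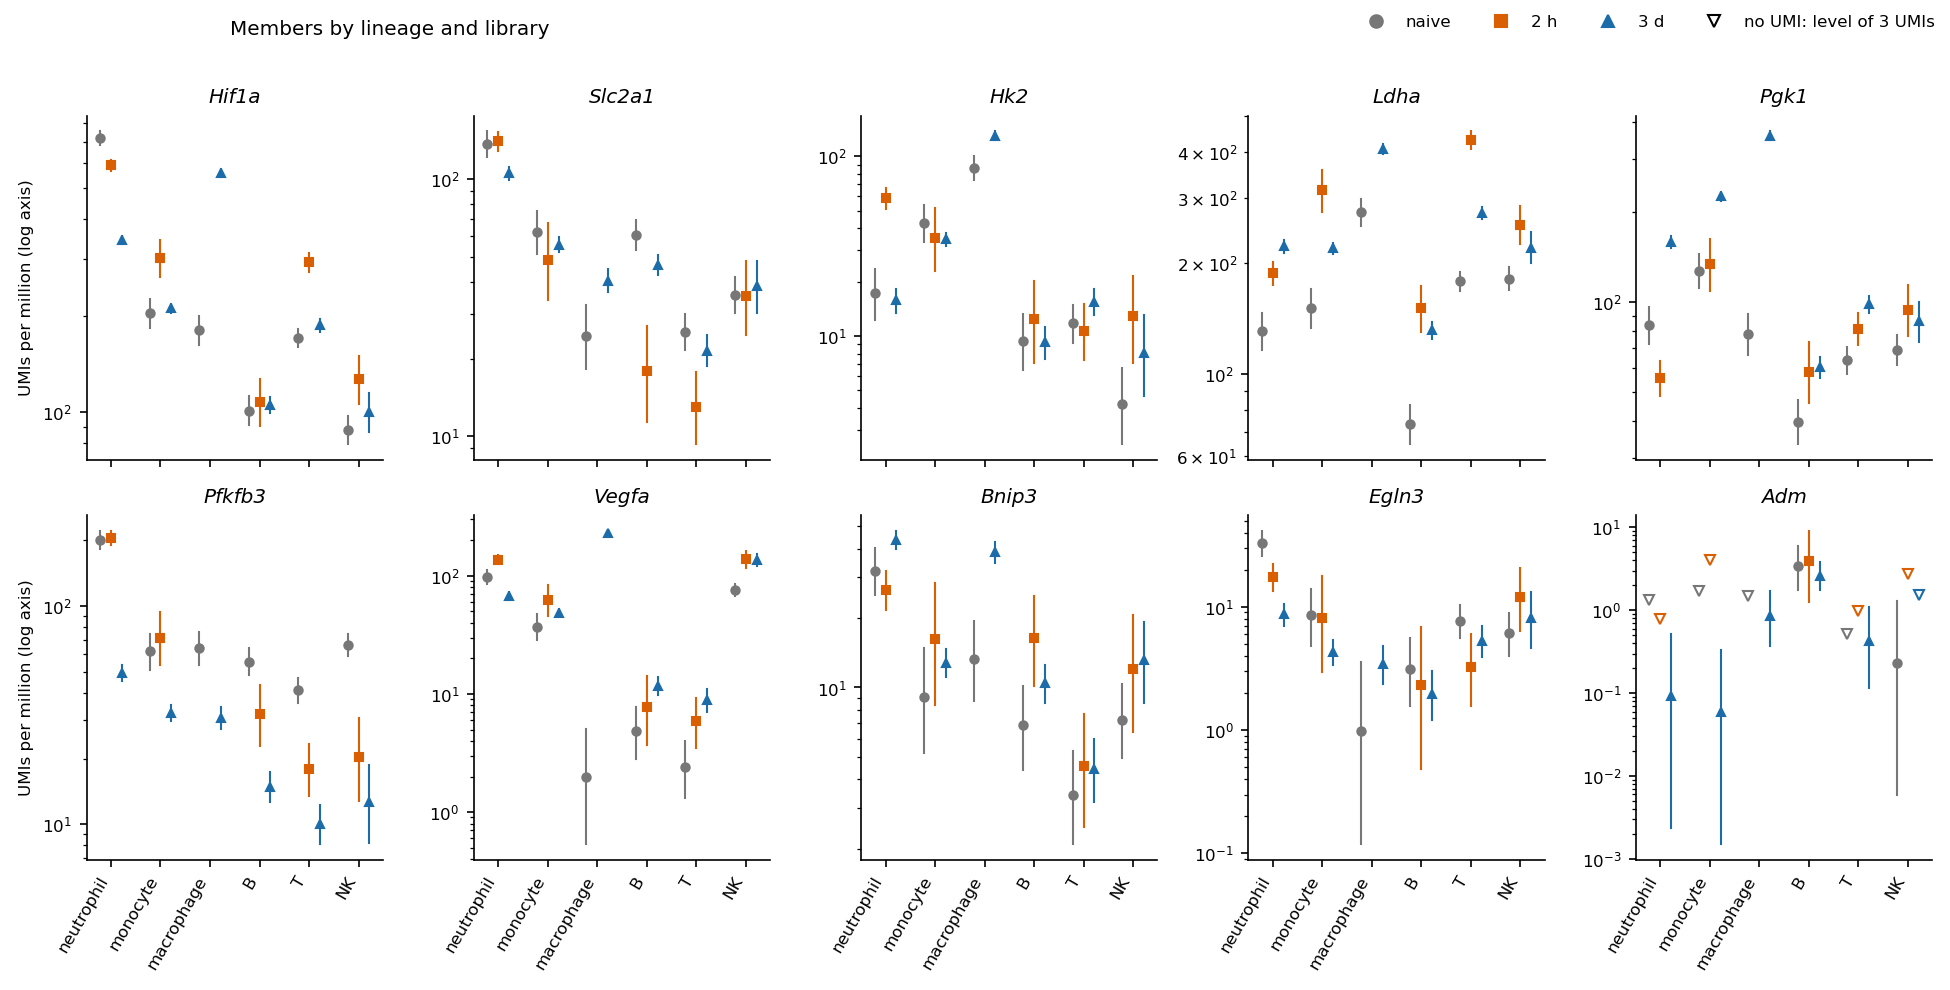
Level of each member (CPM, log axis) in 6 lineages of the naive, 2 h and 3 d libraries; bars are 95% exact Poisson intervals, open triangles mark the level that 3 UMIs would give where none was counted, and the 5 macrophages at 2 h are not drawn. Pfkfb3 in neutrophils stands at 202 and 205 in the naive and 2 h libraries and at 49.2 at 3 d, while Vegfa in macrophages goes from 1.97 to 230.

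Hif1a (ENSMUSG00000021109, chr12:73901375-73947530, plus strand) encodes the oxygen-regulated subunit. In neutrophils its level was 717 in the naive library, 590 at 2 h and 345 at 3 d, with intervals of 683 to 753, 566 to 614 and 334 to 356. The 3 intervals did not overlap, and the order was naive, then 2 h, then 3 d. The direction between naive and 2 h depended on the reference: the log2 ratio of 2 h over naive was -0.28, but 0.33 relative to the median of genes with introns of similar length, a comparison described further on. In monocytes the levels were 204, 303 and 211, and in T cells 171, 293 and 186 (naive, 2 h, 3 d). In both, the 2 h library stood above the others, by a log2 ratio over 3 d of 0.52 (0.32 to 0.72) and 0.65 (0.54 to 0.77), under the 2-fold limit. These ratios may include neutrophil RNA, which at the neutrophil share would amount to 23.7% of the monocyte level at 2 h and 2.02% at 3 d. In T cells the same amounts were 6.48% and 1.48%. B cells stood at 101, 107 and 105 and NK cells at 87.8, 127 and 99.8. The B cell intervals overlapped in all 3 libraries. For 2 h over naive the median log2 ratio of genes of similar intron length was -1.025 in B cells and -0.89 in NK cells. Relative to those genes Hif1a stood above naive at 2 h in both lineages. At the neutrophil share, neutrophil RNA would amount to 24.1% of the 2 h level in B cells and 15.9% in NK cells. At 2 h the order of lineages was neutrophils, monocytes, T cells, NK cells and B cells, in which monocytes and T cells overlapped, as did NK and B cells. At 3 d macrophages led with 557 (542 to 573), followed by neutrophils, monocytes, T cells, B cells and NK cells, the last 2 overlapping.

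Egln3 (ENSMUSG00000035105, chr12:54178981-54203860, minus strand) encodes a hydroxylase that is itself induced by the factor. In neutrophils it stood at 32.9 in the naive library (25.9 to 41.4), 17.4 at 2 h (13.5 to 22.1) and 8.68 at 3 d (7.01 to 10.6), the same order as Hif1a. The naive level rests on 74 UMIs that were found in only 24 of 388 neutrophils, a spread between cells that the interval does not cover. The 2 h level was just past 2-fold over 3 d (log2 ratio 1.002, interval 0.53 to 1.47), and 7 of 10 other ways of processing took it below that limit (range 0.66 to 1.21). In the other 5 lineages no library exceeded 12.01, the level of 13 UMIs in NK cells at 2 h.

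Slc2a1 (ENSMUSG00000028645, chr4:119108711-119137983, plus strand) encodes the glucose transporter GLUT1. Its B cell level was 60.8 in the naive library, 17.9 at 2 h and 46.6 at 3 d, and T cells showed 25.5, 13.01 and 21.6. The 2 h library was the low one in both, with a B cell log2 ratio over 3 d of -1.38 (-2.05 to -0.78) that stayed past 2-fold under all 10 other ways of processing (-1.95 to -1.10). The B cell value at 2 h rests on 23 UMIs, and neutrophil RNA at the neutrophil share would amount to 34.5% of it. Neutrophils carried 138, 141 and 106, so their 2 h library was the higher one against 3 d (log2 ratio 0.42, interval 0.27 to 0.56). Monocytes (62.6, 48.6 and 55.8) and NK cells (35.6, 35.1 and 38.5) had overlapping intervals in all 3 libraries. At 2 h neutrophil RNA at the neutrophil share would amount to 35.2% of the level in monocytes, 34.9% in T cells and 13.7% in NK cells. For monocytes at 3 d it would be 2.35%.

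Hk2 (ENSMUSG00000000628, chr6:82725025-82774454, minus strand) encodes hexokinase 2, which traps glucose in the cell as its phosphate. Neutrophils held 17.4 in the naive library, 58.6 at 2 h and 15.8 at 3 d, from 39, 226 and 171 UMIs. The 2 h level stood alone, with a log2 ratio of 1.89 (1.60 to 2.19) over 3 d and 1.76 (1.26 to 2.29) over naive. Both stayed past 2-fold under the 10 other ways of processing, between 1.11 and 1.94 for the first and 1.43 and 2.50 for the second. In monocytes the levels were 42.7, 35.1 and 34.5, and in T cells 11.8, 10.7 and 15.5, each with overlapping intervals. At the neutrophil share, neutrophil RNA would amount to 20.3% of the 2 h level in monocytes and 17.6% in T cells. Relative to genes of similar intron length the monocyte log2 ratio of 2 h over naive was 0.45 in place of -0.28. In T cells the median of those genes was -0.89. Macrophages held 86.2 in the naive library and 130 at 3 d, the highest level among the 6 lineages in both.

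Pfkfb3 (ENSMUSG00000026773, chr2:11471433-11554077, minus strand) encodes the enzyme that makes the main activator of phosphofructokinase and so sets the pace of glycolysis. Its neutrophil levels were 202 in the naive library (184 to 221), 205 at 2 h (191 to 220) and 49.2 at 3 d (45.1 to 53.6). Naive and 2 h overlapped, and 3 d lay below both, with a log2 ratio of 2.06 (1.90 to 2.22) for 2 h over 3 d, between 1.93 and 2.10 under the 10 other ways of processing. Monocytes showed 62.0, 71.6 and 32.3 and had the same pattern, with a log2 ratio of 1.15 (0.71 to 1.56) for 2 h over 3 d. The closeness of naive and 2 h depended on the reference. The log2 ratio of 2 h over naive was 0.03 in neutrophils and 0.21 in monocytes. Relative to genes of similar intron length it was 0.64 and 0.94. B cells showed 55.6, 31.9 and 14.8 (log2 ratio 1.11, interval 0.57 to 1.61), T cells 41.2, 17.9 and 10.0 (0.83, 0.33 to 1.33), and NK cells 66.5, 20.3 and 12.7 (0.68, -0.21 to 1.57). In these lymphocytes the naive library was highest and the 2 h value lay between, although relative to genes of similar intron length B cells at 2 h stood 0.22 above naive in place of 0.80 below (log2 ratio -0.80). The 2 h library was thus above 3 d in all 5 lineages, with the NK interval including 0. Neutrophil RNA at the neutrophil share would amount to 28.2% to 37.0% of the 2 h level in monocytes, B, T and NK cells. With that share subtracted, the log2 ratio of monocytes was 0.56 and that of B cells 0.69, no longer past 2-fold. In B cells 4 of the 10 other ways of processing placed it under 2-fold, with the lowest value, 0.60, when called doublets were left out, and in monocytes 1 of 9 did.

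Pgk1 (ENSMUSG00000062070, chrX:106187100-106203699, plus strand) encodes phosphoglycerate kinase 1, an ATP-forming step of glycolysis. Neutrophils held 83.7 in the naive library, 55.5 at 2 h (48.3 to 63.5) and 159 at 3 d (151 to 166), so that 3 d was highest and 2 h lowest. The log2 ratio of 2 h over 3 d was -1.51 (-1.73 to -1.31), and -1.54 to -1.22 under the 10 other ways of processing. Monocytes held 127, 134 and 226, again highest at 3 d (log2 ratio -0.75, interval -1.06 to -0.47). The B cell levels of 39.6, 58.4 and 60.4 and the NK cell levels of 69.0, 94.2 and 86.1 did not separate 2 h from 3 d, and T cells (63.8, 81.3 and 98.4) differed by -0.27 (-0.48 to -0.07).

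Ldha (ENSMUSG00000063229, chr7:46841475-46855627, plus strand) encodes lactate dehydrogenase A, which turns pyruvate into lactate. T cells showed 178 in the naive library (168 to 189), 430 at 2 h (408 to 454) and 273 at 3 d (263 to 284). Monocytes showed 151, 315 and 219, B cells 73.3, 151 and 132, and NK cells 181, 254 and 220. Both transplant libraries were above the naive one in these 4 lineages. Between 2 h and 3 d the log2 ratio was 0.65 (0.56 to 0.75) in T cells and 0.52 (0.32 to 0.71) in monocytes, while the intervals of B and NK cells included 0. In neutrophils, with 131, 188 and 222, 3 d stood above 2 h, at a log2 ratio of -0.24 (-0.37 to -0.12).

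Vegfa (ENSMUSG00000023951, chr17:46016993-46032369, minus strand) encodes a secreted growth factor for blood vessels. Neutrophils held 97.9 in the naive library (85.4 to 112), 137 at 2 h (126 to 150) and 67.5 at 3 d (62.7 to 72.6). The 2 h level was the highest, with a log2 ratio over 3 d of 1.03 (0.86 to 1.19) that 5 of 10 other ways of processing placed under 2-fold (0.72 to 1.13). NK cells held 75.8, 138 and 137, so that the transplant libraries did not separate from each other (log2 ratio 0.01, -0.29 to 0.30) and both lay above naive. Monocytes held 37.0, 62.1 and 48.9, of which neutrophil RNA at the neutrophil share would amount to 26.9% at 2 h and 1.71% at 3 d. B and T cells never exceeded 11.8, and at 2 h neutrophil RNA at the neutrophil share would amount to 77.4% and 75.7% of their level.

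Bnip3 (ENSMUSG00000078566, chr7:138890836-138909519, minus strand) encodes a protein of the outer mitochondrial membrane that marks mitochondria for removal. Its neutrophil levels were 32.0, 26.5 and 43.7 (naive, 2 h, 3 d), with 3 d above 2 h (log2 ratio -0.72, interval -1.05 to -0.41). The other lineages held 3.43 to 38.5 CPM over the 3 libraries, and none separated 2 h from 3 d. Adm (ENSMUSG00000030790, chr7:110627661-110629820, plus strand) encodes adrenomedullin, a peptide that widens and stabilizes vessels. It was nearly absent, with 60 UMIs over all 6 lineages and 3 libraries, of which 45 were in B cells at 3.42, 3.89 and 2.61 CPM. No Adm UMI was counted in 4391 neutrophils at 2 h, where 3 UMIs would be 0.778 CPM, and it entered no comparison. Hif1a, Slc2a1, Hk2, Pfkfb3, Bnip3 and Adm overlap other annotated genes, and the sources used here do not say whether counting used strand.

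**Figure D2:**
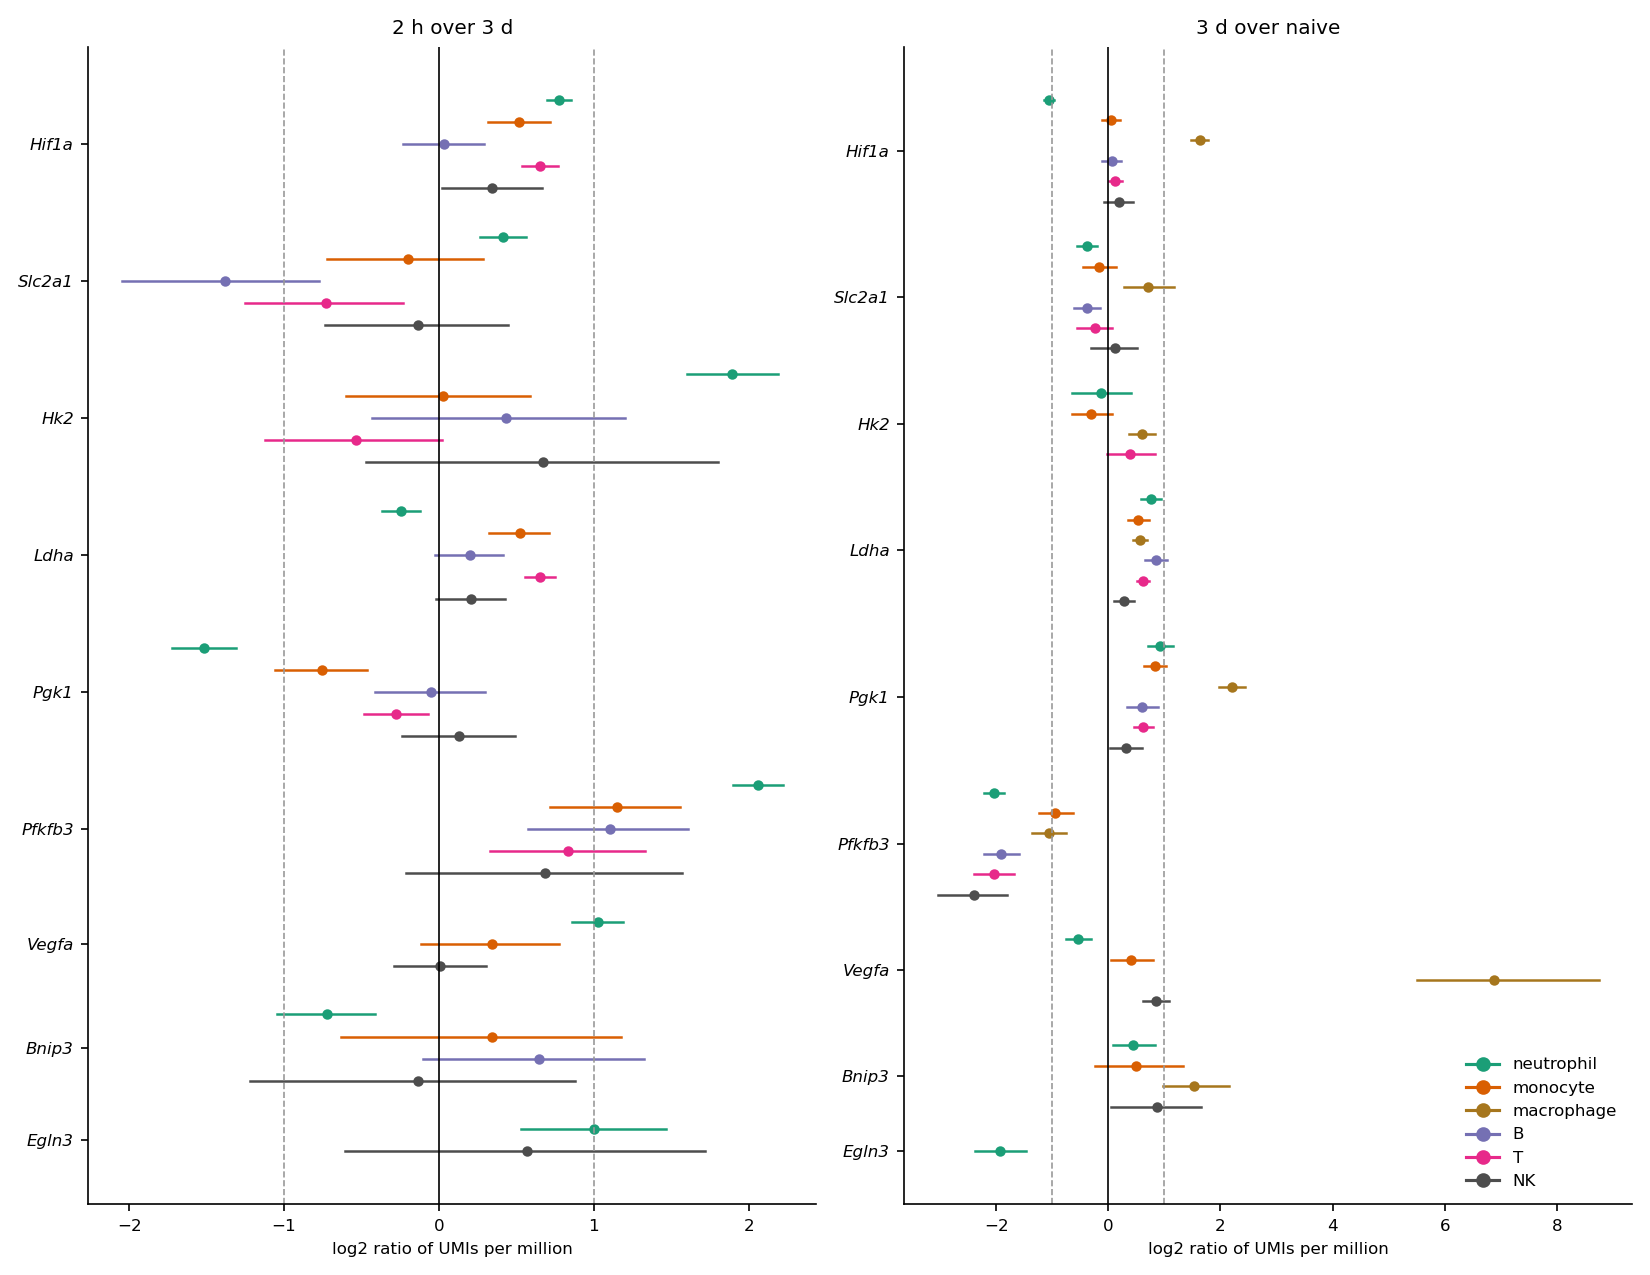
Log2 ratio of the level of each member, 2 h over 3 d (left) and 3 d over naive (right), in each lineage that entered the comparison; lines are 95% exact intervals for counting error and dashed lines mark 2-fold. On the left Pfkfb3 lies to the right of 0 in all 5 lineages (0.68 to 2.06), and on the right the macrophage point of Vegfa (6.87) lies farthest from 0.

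Comparisons with the naive library ask what transplantation changed, but software, the origin of the cells and group cannot be told apart there. In every lineage the transplant libraries held sorted recipient cells that had entered a graft, while the naive library held cells of an untreated lung. Genes with long introns were higher in the naive library: for 3 d over naive the median log2 ratio of genes with over 100 kb of introns was between -1.72 and -1.40 in the 6 lineages, against 0.09 to 0.80 for genes without introns. For 2 h over 3 d the same medians were -0.56 to -0.19 and -0.11 to 0.24. Pfkfb3 (75.1 kb of introns), Hk2 (43.5 kb) and Hif1a (40.3 kb) fall in the 30 to 100 kb band, Adm has 0.541 kb, and the others have 10.8 to 25.8 kb. The called ratios to naive are therefore given below also as a distance from the median of genes of the same band.

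**Figure D3:**
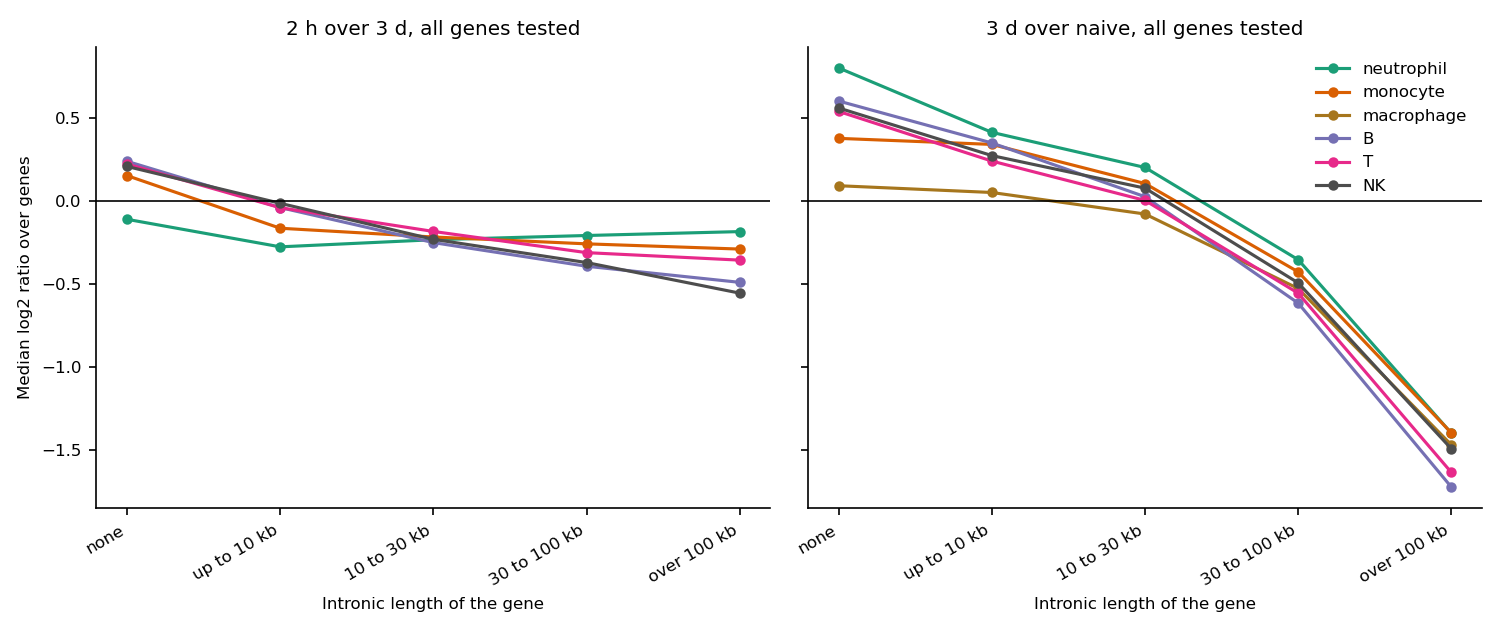
Median log2 ratio over all genes that entered, by intronic length of the gene, for 2 h over 3 d (left) and 3 d over naive (right), 1 line per lineage. On the right all 6 lines descend to between -1.72 and -1.40 in the longest band, and on the left none goes below -0.56.

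Of 36 pairs that entered for 2 h against naive, 5 were called higher at 2 h and 3 lower, beside 8.48% and 27% of all gene and lineage pairs. The higher calls were Hk2 in neutrophils, Ldha in monocytes (log2 ratio 1.06), B cells (1.04) and T cells (1.27), and Bnip3 in B cells (1.26, from 21 UMIs at 2 h). Relative to genes of the same intron band these stood at 2.37, 1.21, 1.29, 1.46 and 1.504. Of 10 or, in monocytes, 9 other ways of processing, 3 placed monocyte Ldha under 2-fold, 4 did so for B cell Ldha, and 1 each for T cell Ldha and B cell Bnip3. The lower calls were Slc2a1 in B cells (-1.76) and Pfkfb3 in T cells (-1.20) and NK cells (-1.71), which stood at -1.51, -0.31 and -0.82 from their bands. Thinning each cell to 500 UMIs took T cell Pfkfb3 to -0.77.

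Of 43 pairs that entered for 3 d against naive, 4 were called higher at 3 d and 7 lower, beside 5.34% and 18.3% of all pairs. All 4 higher calls were in macrophages, in which 11.5% of all genes were called higher and 23.5% lower. The lower ones were Pfkfb3 in neutrophils (-2.03), macrophages (-1.06), B cells (-1.91), T cells (-2.04) and NK cells (-2.39), and Hif1a (-1.06) and Egln3 (-1.92) in neutrophils. The naive Egln3 level came from few neutrophils, as given above. Pfkfb3 in monocytes was -0.94. Relative to their bands the 6 Pfkfb3 values ranged from -1.90 to -0.51, neutrophil Hif1a was -0.70 and neutrophil Egln3 -2.12. Ldha was higher at 3 d than in the naive library in all 6 lineages, by 0.28 to 0.84, and Pgk1 by 0.32 to 2.20, which relative to their bands came to 0.20 to 0.82 and 0.24 to 2.28.

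Macrophages held all 4 members called higher at 3 d than in the naive library, Hif1a, Pgk1, Vegfa and Bnip3, and their cells were of different kinds in those libraries. Of the 107 naive macrophages 102 were in a cluster with alveolar macrophage markers, whereas at 3 d 633 were in a cluster led by Arg1 and Saa3 and 166 in a cluster led by C1qa, C1qb and C1qc. The summed levels were 180 and 557 for Hif1a (naive, 3 d), 78.3 and 360 for Pgk1, 1.97 and 230 for Vegfa, and 13.3 and 38.5 for Bnip3. The log2 ratios were 1.63 (1.48 to 1.78), 2.20 (1.97 to 2.44), 6.87 (5.51 to 8.75) and 1.53 (0.97 to 2.15), and relative to their bands 2.16, 2.28, 6.95 and 1.61. The naive Vegfa level rests on 4 UMIs. Slc2a1 (24.6 and 40.3), Hk2 (86.2 and 130) and Ldha (275 and 406) were also above naive, by less than 2-fold, and Pfkfb3 (64.0 and 30.6) was below. Of 7955 genes tested in macrophages the median log2 ratio was -0.23. With each cell thinned to 500 UMIs, where 1 UMI of the naive macrophages is already worth 18.7 CPM, Bnip3 stood at -0.16 and Pfkfb3 at 0.0063, while Pgk1 (1.60) and Hif1a (1.43) were still past 2-fold, as was Vegfa (at least 1.91, with the 0 of the naive library set to 3 UMIs). Without a cell filter Pfkfb3 was also under 2-fold.

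The clusters of 1 library also differed among themselves. Among 2 h neutrophils, Pfkfb3 was 227 in the cluster led by Cxcl3 and Il1r2 (2925 cells), 278 in a smaller one led by Ccl4 and Cxcl3 (367 cells) and 125 in the one led by the granule genes Ngp and Camp (1097 cells). Hk2 was 62.7, 53.3 and 50.3 in the same clusters, all above the 15.6 of the 3 d cluster and the 14.3 of the naive one. Egln3 was 19.2, 39.3 and 5.00. At 3 d, the macrophage cluster led by Arg1 held more Hif1a (645), Pgk1 (444) and Ldha (476) than the C1q cluster (336, 149 and 229), while the C1q cluster held more Vegfa (327 against 192). Monocytes with classical markers at 3 d held 239 for Hif1a and 241 for Pgk1, against 101 and 167 in those with nonclassical markers. Monocytes at 2 h and in naive lungs fell in 1 cluster each, with markers of both kinds among the leading genes. All of these genes could enter the clustering, so these values describe the clusters and test nothing.

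**Figure D4:**
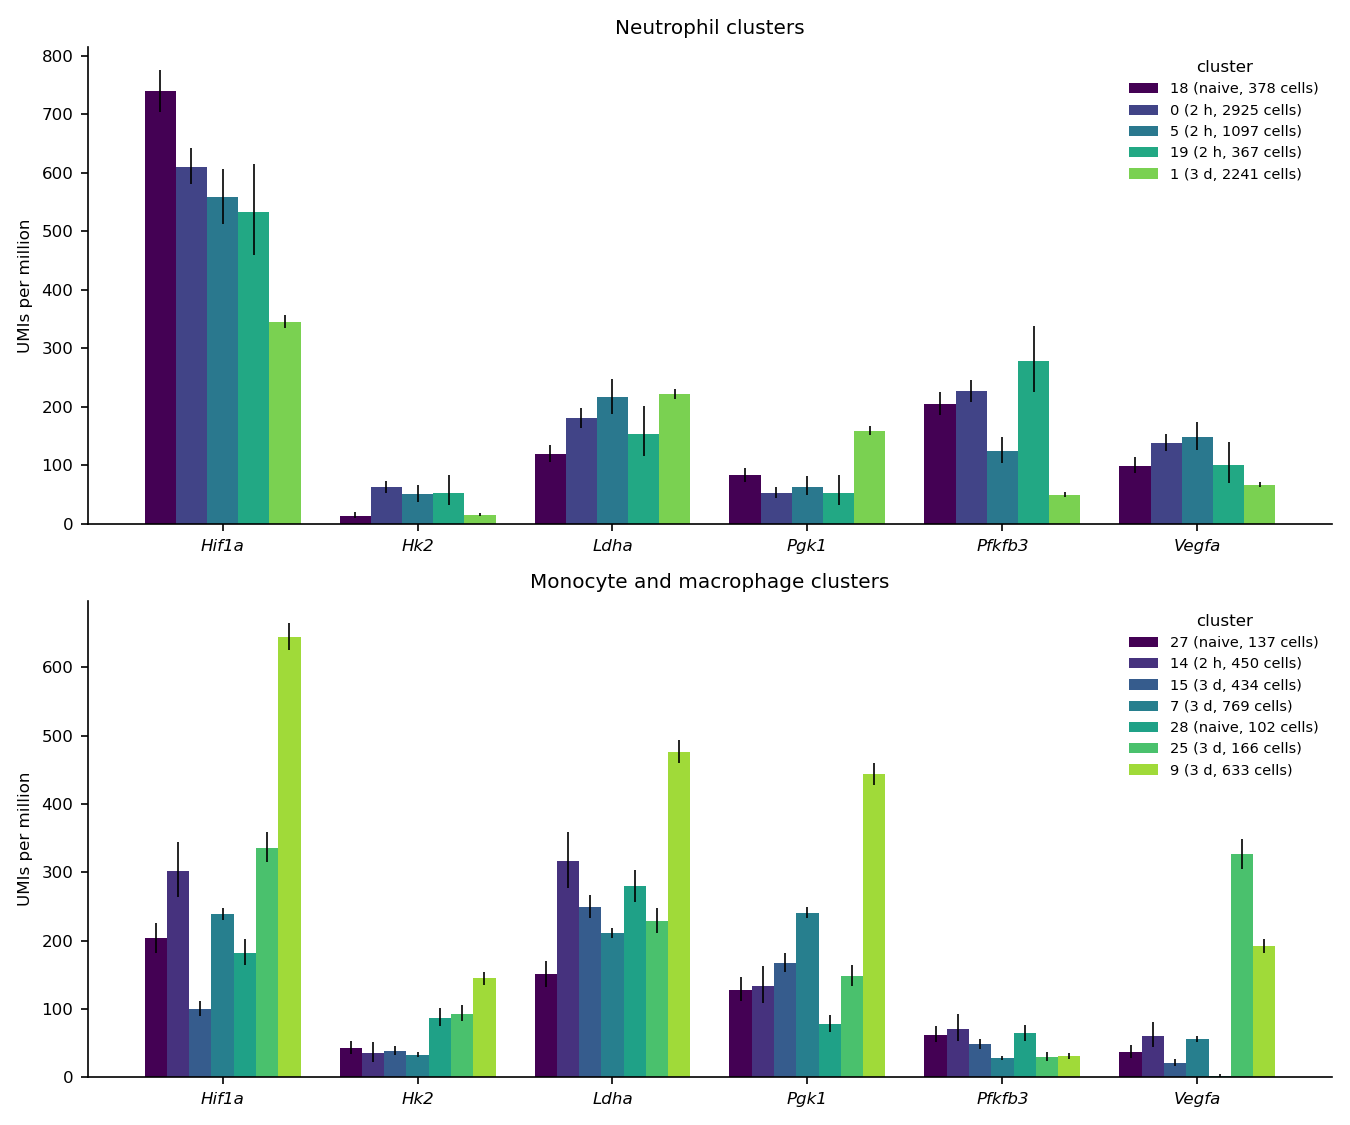
Level of 6 members (CPM, bars from 0, with 95% exact Poisson intervals) in the neutrophil clusters (top) and the monocyte and macrophage clusters (bottom), each drawn for the library that holds most of its cells. All 3 clusters at 2 h exceed the 3 d cluster in Pfkfb3 (125 to 278 against 49.3), and cluster 9 at 3 d has the highest Hif1a, Ldha and Pgk1 of the bottom panel (645, 476 and 444).

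Shares of positive cells were compared at equal depth, with every cell thinned to 500 UMIs. This left out 340 neutrophils, 58 B cells, 41 NK cells, 14 T cells and 3 monocytes at 2 h and no cell elsewhere. A Pfkfb3 UMI was then seen in 7.73% of neutrophils in the naive library (5.28% to 10.8%, exact binomial interval), 8.32% at 2 h (7.49% to 9.21%) and 2.34% at 3 d (1.76% to 3.06%). Before thinning the shares were 44.9%, 13.96% and 17.0%, at unequal depth. The order at equal depth matched that of the summed levels. Hk2 was seen in 0.515%, 2.42% and 0.929% of thinned neutrophils, and Pgk1 in 3.09%, 2.81% and 6.63%. Vegfa was seen in 3.35%, 5.65% and 2.65% of neutrophils, against 0%, 0.203% and 0.474% of T cells. The 0 of 577 naive T cells allows a share of cells with a UMI of up to 0.637% at this thinned depth (exact interval), and before thinning 12 of the 577 (2.08%) had one. Vegfa was seen in 9.26% of macrophages at 3 d and in 0 of 107 in the naive library, which at this thinned depth allows up to 3.39% of cells with a UMI. Before thinning 4 of the 107 (3.74%) had one. Ldha was seen in 6.41%, 19.5% and 12.1% of T cells.

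Other genes of the pathway were counted in the same way from 4 lists. In the list of 11 genes of the oxygen-sensing machinery, 44 pairs entered for 2 h against 3 d, 5 were higher at 2 h and 7 lower, and the median log2 ratio was -0.04. These calls were 11.4% and 15.9% of the pairs, beside 6.79% and 12.5% of all gene and lineage pairs. Arnt, the partner of Hif1a, stood at 73.9, 114 and 47.4 in monocytes (naive, 2 h, 3 d) and at 75.7, 95.7 and 46.35 in neutrophils. It was called higher at 2 h than at 3 d in both. Elob and Eloc, adaptors of the Vhl ligase, were called higher at 2 h in monocytes and T cells respectively, with 230, 546 and 269 for Elob in monocytes and 77.2, 191 and 75.3 for Eloc in T cells. Eloc was also called higher at 2 h in neutrophils, at 101, 228 and 111. Rbx1, its RING subunit, stood at 98.8, 92.9 and 140 in neutrophils, which was below 2-fold. The ligase's receptor Vhl and the hydroxylase Hif1an were among the lower calls. In macrophages at 3 d against naive, 10 of the 11 genes entered and none was called. Of all macrophage genes 11.5% were called higher and 23.5% lower.

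In the list of 24 further genes of glycolysis, transport and lactate, 81 pairs entered, 5 were higher at 2 h and 13 lower, with a median of -0.41. These calls were 6.17% and 16.05% of the pairs, beside 6.79% and 12.5% of all gene and lineage pairs. In neutrophils, of 15 that entered, none was higher and 5 were lower (Hk3, Pfkp, Tpi1, Pgam1 and Slc16a3), the same direction as Pgk1 and the opposite one to Hk2 and Pfkfb3. Of all neutrophil genes 6.69% were called higher and 13.3% lower. Slc16a3, a lactate exporter, stood at 1426, 725 and 1729 in neutrophils, and Hk3, a hexokinase of myeloid cells, at 97.02, 31.9 and 79.2. Pfkp, the platelet form of phosphofructokinase, stood at 84.9, 25.1 and 98.0 in T cells and was also lower at 2 h in B cells, NK cells and neutrophils. Gapdh was the reverse in lymphocytes: in NK cells its levels were 331, 1040 and 371 (log2 ratio 1.49 for 2 h over 3 d), and it was also called higher at 2 h in B cells and T cells. In macrophages at 3 d against naive, 6 of 18 genes were higher and 2 lower, beside 11.5% and 23.5% of all macrophage genes. Those higher included Slc16a3 (29.1 and 293) and Slc2a6, another hexose transporter (4.93 and 96.1).

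In the list of 20 other hypoxia-induced genes, 70 pairs entered, 4 were higher at 2 h and 7 lower, with a median of -0.26. These calls were 5.71% and 10% of the pairs, beside 6.79% and 12.5% of all gene and lineage pairs. Ddit4, an inhibitor of mTOR signaling, was higher at 2 h in neutrophils, monocytes and NK cells, where it stood at 28.8, 70.2 and 33.4. P4ha1, a collagen prolyl hydroxylase, stood at 69.1, 85.2 and 32.8 in T cells. Mif, a cytokine, stood at 26.7, 32.4 and 72.7 in neutrophils. Higd1a, a mitochondrial protein, stood at 99.0, 54.0 and 99.4 in monocytes, which was within 2-fold. In macrophages at 3 d against naive, 7 of 15 genes were higher and 2 lower, beside 11.5% and 23.5% of all macrophage genes. The higher ones included Hilpda, a lipid droplet protein (70.0 and 368), and Ndrg1 (2.96 and 82.3).

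Of 8 genes listed as receptors, or receptor partners, for the products of Vegfa and Adm, 16 pairs entered. For 2 h against 3 d, 4 were higher at 2 h and 3 lower. These calls were 25% and 18.75% of the pairs, beside 6.79% and 12.5% of all gene and lineage pairs. Only 6 genes made up the 16 pairs. Calcrl, the receptor for adrenomedullin, stood at 63.8, 79.4 and 21.1 in T cells, while its partner Ramp3 stood at 155, 50.1 and 173 in the same cells. Ramp1, another partner of Calcrl and not taken here as a measure of adrenomedullin binding, stood at 84.8, 78.4 and 107 in monocytes. The 4 higher calls were Calcrl in B, T and NK cells and Ramp1 in NK cells, the last at a log2 ratio of 1.005 (0.063 to 1.95). In macrophages at 3 d against naive, 6 of the 8 genes entered, 1 higher and 4 lower, beside 11.5% and 23.5% of all macrophage genes. Flt1, a receptor for Vegfa, was 472 in naive macrophages and 3.23 at 3 d, opposite to Vegfa itself. Its log2 ratio of 3 d over naive was -7.19, and -5.725 relative to genes of its intron band. The naive macrophages were mostly alveolar and those at 3 d were not, so the 2 levels come from different kinds of cells.

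For each of the 7 members that reached 50 CPM in some lineage, the genes with the most similar pattern over 17 values of lineage and library were found. Hif1a went most closely with Nfkbiz (Pearson r 0.93), Basp1 (0.89) and Fas (0.88), and Pfkfb3 with Nt5c2 (0.94), Arih2 (0.92) and Rnf24 (0.91). Pgk1 went with another glycolysis gene, Pgam1 (0.90), and with Serpinb8 (0.88) and Ccdc71l (0.88). Hk2 went with Cflar (0.94), Wsb1 (0.92) and Gde1 (0.90), and Vegfa with Ccl4 (0.91), Spty2d1 (0.89) and Itgam (0.88). Slc2a1 went with Dennd5a (0.91), Slc25a20 (0.91) and Ppp1r2 (0.89), and Ldha with Cish (0.81), Klhl9 (0.78) and Eif5a (0.78). The 17 values share 3 libraries and their depths and software, and the correlations are a description.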

How the data were processed

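Single cells of 3 pooled libraries were analysed from UMI count matrices that the authors deposited after alignment to mm10. Labels and methods name Cell Ranger 6 and Seurat 4, the file headers the versions given above. The labels list 5′ and 3′ v1.1 kits and the methods a 3′ v3 kit, so the transcript end that was read is uncertain. A panel of 277 antibody features in the transplant libraries was not used. Kept cells had between 200 and 6000 genes, less than 10% of their UMIs from mitochondria and fewer than 25000 UMIs. They were normalised with sctransform 0.4.2, reduced to 30 principal components and clustered at resolution 0.8 in Seurat 5.3.0 (R 4.3.3). A cluster received a lineage where the median log2 difference of its markers was at least 1, at least 3 markers were detected and its top 10 genes held no more markers of another class. Scrublet in scanpy 1.11.5 marked 1.65%, 3.92% and 3.33% of kept cells (naive, 2 h, 3 d) as doublets, which stayed in the main values. A cluster of 398 cells led by Hspa1a, Hspa1b and surfactant genes, mostly of the 2 h library, was left out of the lineages. Counts were summed per lineage and divided by its total, as CPM. A count of 0 was set to 3 for ratios (scipy 1.17.1), and the ratio script was tested on simulated counts. UMIs of 2 Aldoa entries were summed. With 1 library per group no test was possible. Named were all members, from each list up to 4 genes with the largest ratio of 2 h to 3 d at a mean of at least 50 CPM, and the 3 genes most correlated with a member on log2(CPM + 10), without the 5 macrophages at 2 h, which leaves 17 values. Others were named after their values were seen (Vhl, Hif1an, Tpi1, Pgam1, Slc2a6, Hilpda, Ndrg1 and Flt1). The members, lists and alternatives were chosen with earlier results of these data known. Positions and intron lengths come from GENCODE vM21 on GRCm38, which held 32235 of the 32285 gene IDs.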

Additional observations from a re-analysis of the deposited data

Results flagged for a closer look

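Hif1a differed in opposite directions between lineages at 3 d against naive: it stood at 717 CPM in naive neutrophils and 345 at 3 d, but at 180 in naive macrophages and 557 at 3 d. The log2 ratios of -1.06 and 1.63 lay 2.69 apart, and relative to genes with introns of similar length they were -0.70 and 2.16. The difference was not tested, since each group is 1 library, and the naive macrophages were mostly alveolar while those at 3 d were not.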

How the results depend on the processing

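There were 13 alternatives. A limit of 1.5-fold gave 13 pairs higher and 5 lower for 2 h against 3 d, 9 and 7 for 2 h against naive, and 15 higher for 3 d against naive. At that limit 14.1%, 16.8% and 14.2% of all gene and lineage pairs were higher in the same 3 comparisons and 29.5%, 39.6% and 28.6% lower. A minimum mean level of 50 CPM gave 3 and 1, 3 and 0, and 2 lower at 3 d, beside 7.91%, 8.7% and 4.22% of all pairs higher and 10.2%, 27.7% and 19.3% lower. Resolution 0.4, where monocytes at 2 h had too few cells, left 3 higher at 2 h against either library. The mean over cells gave 3 higher at 2 h than at 3 d and 5 lower than naive. Calling cells one by one gave 5 lower at 2 h in both comparisons, leaving out doublets gave 5 lower than naive, and subtracting the neutrophil share gave 3 higher and 5 lower than naive. Without a cell filter 3 were higher at 2 h than naive. Thinning to 500 UMIs gave 4 lower at 2 h than at 3 d and 10 higher at 3 d than naive (18.3% and 11.1% of all pairs), and no filter on low values gave 7 higher at 3 d than naive (9.61%). Under the other 9 alternatives all pairs stayed at 6.09% to 7.38% higher and 12.3% to 14.8% lower for 2 h against 3 d, 7.11% to 9.73% and 25.4% to 29% for 2 h against naive, and 4.84% to 6.62% and 16.7% to 18.7% for 3 d against naive. The cause was not tested. Called ratios changed sign only in macrophages at 3 d against naive when thinned: Pfkfb3 (0.0063) and Bnip3 (-0.16). Among 118 member ratios, 58 moved beyond their counting interval when thinned, and 2 more were reversed. The number that moved was 21 when cells were called one by one, 12 with the neutrophil share subtracted and 1 to 8 under the other 7. Resolution 0.4 covered fewer ratios, since monocytes at 2 h had too few cells there. No paired analysis was possible because each group holds 1 library. Depth limits T cells, B cells, NK cells and monocytes most at 2 h, where 3 UMIs are worth 0.976, 2.34, 2.77 and 4.05 CPM, and neutrophils most in the naive library (1.34, against 0.778 at 2 h).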

Other observations

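Cells outside the 6 lineages also carried these genes. In a cluster with endothelial markers (92, 49 and 297 cells in the naive, 2 h and 3 d libraries), Vegfa stood at 272, 287 and 345 CPM with overlapping intervals. Adm stood at 18.1 in that cluster in the naive library (5 UMIs, interval 5.89 to 42.3) and at 1.55 at 3 d (1 UMI, 0.0394 to 8.66). The sort for CD45.1 would remove endothelial cells, and surfactant gene Sftpc led that cluster. In a cluster with basophil or mast cell markers (20, 68 and 112 cells), Egln3 stood at 107, 56.1 and 47.6 and Hk2 at 164, 123 and 159, all above the neutrophil levels of the same libraries. Their Egln3 intervals overlapped between libraries (62.5 to 172, 18.2 to 131 and 32.8 to 66.9). An unnamed cluster at 3 d led by Tnf, Ccl3 and Siglecf (149 cells) held 213 CPM of Vegfa, 120 of Hk2 and 36.0 of Egln3. At 3 d 49 cells fell in the B cell cluster of the 2 h library and held 421 CPM of Hif1a, against 99.1 in the main B cell cluster of 3 d.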
